A study of Saccharomyces cerevisiae with 36 samples.

Results

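The NuB4 complex of budding yeast joins Hat1, the catalytic subunit of the type B histone acetyltransferase, Hat2, its histone-binding WD40 partner, and Hif1, a nuclear histone chaperone. This account sets growing cells that lack HAT2 against growing cells that lack HAT1, so that the same complex is broken at its histone-binding subunit or at its catalytic subunit. The members are the mid-log expression arrays of hat2Δ and hat2Δhif1Δ (4 arrays) and of hat1Δ and hat1Δhif1Δ (4 arrays), which makes 8 of the 36 samples in the series. They were chosen by genotype and growth state alone. For each probe the difference hat2Δ minus hat1Δ and the difference hat2Δhif1Δ minus hat1Δhif1Δ were averaged, with arrays paired by replicate letter, so that HIF1 was present on both sides of the first difference and absent from both sides of the second.

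Each array compared RNA of a deletion strain with a common wild-type RNA in 2 colours, and all values below are log2 ratios of strain over that wild type, which drops out of the difference between strains. Every strain was represented by 2 separately inoculated cultures, called a and b, and dyes were swapped between the letters. The mid-log strains of the complex were all derived from BY4742 (MATα his3Δ1 leu2Δ0 ura3Δ0) and were grown in synthetic complete medium with glucose. HAT1 was replaced by NatMX in hat1Δ and hat1Δhif1Δ, HAT2 by NatMX in hat2Δ and hat2Δhif1Δ, and HIF1 by KanMX in both double mutants, so the drug markers were matched within each difference. The study lists a single strain for each of the 4 genotypes compared, so the spread between their letters is that between cultures and dyes, not between independently made strains. The other mid-log strains of the complex, hif1Δ, hat1Δhat2Δ and hat1Δhat2Δhif1Δ, entered the same fit and are given where they help to read a value. The same exchange was also available in G0, in starved MATa bar1Δ strains that carry a single tagged H3 gene, HHT2, and have HHT1 and HHF1 deleted, where HAT1 and HAT2 were replaced by KanMX. Starved wild type, hif1Δ and the HHF2 mutants K5Q,K12Q and K5R,K12R of that background also entered the G0 fit.

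The type B enzyme acts before histones reach chromatin. In the cytosol and nucleus it binds newly made H4, most often with H3, and acetylates lysines near the start of the H4 tail, marks that are removed once the histones have been deposited. Hat2 belongs to the RbAp family of WD40 proteins, holds the histone and raises the activity of Hat1, and Hif1 joins the pair in the nucleus and can assemble histones onto DNA. Loss of HAT1 in yeast is known for mild phenotypes, mostly in telomeric silencing and DNA repair when other changes are present. The exchange asks whether the transcriptome of growing cells depends on which of the 2 subunits is missing.

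On the 8 arrays the median spot was 5 to 7.56 times its local background, 94.7 to 98.8% of probes lay above background by 2 SDs, and the log2 ratios of culture a and culture b had correlations of 0.679 to 0.801 over all probes. The MATα label was checked against mating-type genes. STE3, the a-factor receptor of MATα cells, gave a net intensity of 1783 to 2989 on all 8 arrays, whereas the MATa genes AGA2 (20.9 to 39.1) and BAR1 (29.4 to 60.9) were dim. HIF1 read 0.21 and 0.15 in hat2Δ and −2.10 and −1.99 in hat2Δhif1Δ, against 0.13 and 0.16 in hat1Δ and −1.91 and −1.98 in hat1Δhif1Δ, as the labels state. Up to 5 deletion strains were grown on a day, and the growth day of each array was not given in the sources used here, so growth days could not be examined.

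The deleted genes themselves gave the largest differences. HAT1 read 0.16 and 0.09 in hat2Δ and 0.12 and 0.11 in hat2Δhif1Δ, against −2.23 and −2.75 in hat1Δ and −2.64 and −2.84 in hat1Δhif1Δ. The groups lay far apart, and in the strains without HAT1 the probe was above background on 2 of 4 arrays, with a mean net intensity of 10.1, against 463 in the strains without HAT2 and above background on 4 of 4, and its difference of 2.73 (SE 0.10, 6.65-fold, adjusted p = 3.16e-08 by limma) was limited by background at the low end. HAT2 read −2.51 and −2.46 in hat2Δ and −2.37 and −2.24 in hat2Δhif1Δ, against 0.06 and 0.04 in hat1Δ and 0.03 and 0.13 in hat1Δhif1Δ, a difference of −2.46 (SE 0.04, adjusted p = 3.66e-11). Both low ends also depended on the offset of 50 added before taking logs. With an offset of 10, a setting chosen after seeing the data, HAT1 averaged −3.95 in strains without HAT1. HAT2 then averaged −3.37 in strains without HAT2. On every array the partner gene that was still present lay within 0.16 of wild type.

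Beyond these, few probes passed the test. Of 6388 probes, 4 passed an adjusted p of 0.05 in the mean of both differences (0.0626% of those tested), namely HAT1 and HHF1, which were higher without HAT2, and HAT2 and CIT3, which were lower. The mean difference lay within 0.1 of 0 for 90.0% of probes, the SD over all probes was 0.08 and the median SE of a probe was 0.03. At an unadjusted p under 0.05 there were 559 probes higher (8.75%) and 535 lower (8.38%). All 4 arrays of one side lay beyond all 4 of the other for 138 probes in the higher direction (2.16%) and 153 in the lower direction (2.4%). The 4 pair differences were all positive for 770 probes (12.1%) and all negative for 765 (12%). Since each culture is a bulk sample, a change in every cell and a change in the share of cells that carry a transcript cannot be told apart here.

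**Figure D1:**
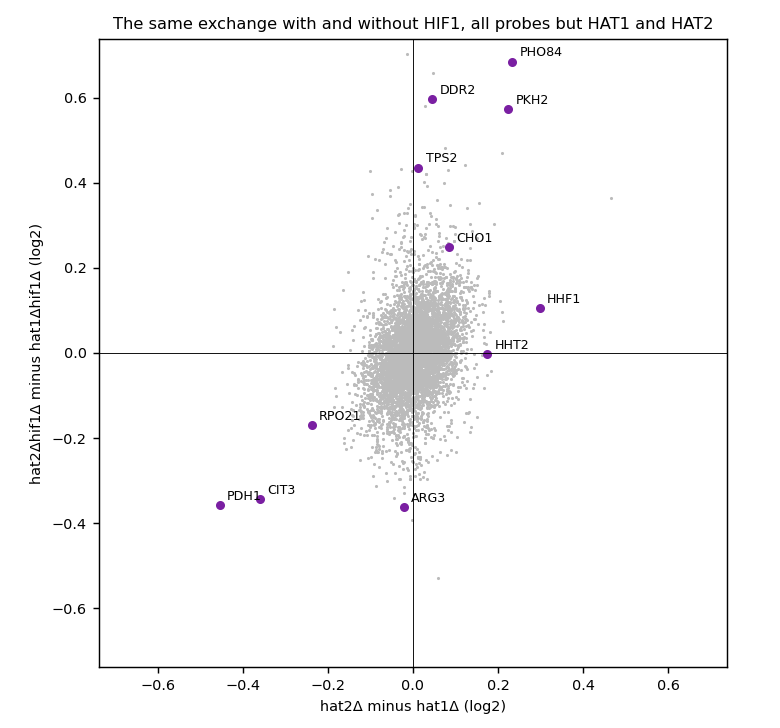
Each point is a probe, HAT1 and HAT2 left out. The x axis gives hat2Δ minus hat1Δ and the y axis hat2Δhif1Δ minus hat1Δhif1Δ, both as log2 differences, with named genes labelled. Most probes lie close to 0 on both axes, CIT3 and PDH1 lie low on both, and without HIF1 51 probes lie above 0.3 and 9 below −0.3, beside 1 and 2 with HIF1 present. The y axis includes hat2Δhif1Δ culture a, on which stress response genes were high.

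The 2 differences were then taken apart. With HIF1 present, HAT1, HAT2, HHF1 and CIT3 passed (4 probes, 0.0626%), and 307 probes had an unadjusted p under 0.05, 165 higher (2.58%) and 142 lower (2.22%). Without HIF1, 6 probes passed (0.0939%), HAT1 and CHO1 higher and HAT2, CIT3, ARG3 and the unnamed probe SCAB005056 lower, and 1163 had an unadjusted p under 0.05, 589 higher (9.22%) and 574 lower (8.99%). The difference without HIF1 was also wider, with 77.3% of probes within 0.1 of 0, against 93.7% with HIF1 present. A direct test of whether the exchange differed between the HIF1 states called 0 of 6388 probes (0%) by limma, with 372 at an unadjusted p under 0.05, 180 more positive without HIF1 than with it (2.82%) and 192 more negative (3.01%), and a lowest adjusted p of 0.803. The named genes of lowest p in that test were AIM41 (0.25), the biotin ligase gene BPL1 (0.27) and YEL073C (0.28) in the positive direction and ARG3 (−0.34), IRC18 (−0.27) and MGA2, a regulator of the fatty acid desaturase gene (−0.30), in the negative direction. Across 6386 probes the 2 differences correlated at r = 0.34 and rho = 0.34. This is a description across probes, which share arrays and dyes, and 3935 of them had the same sign in both. Leaving out hat2Δhif1Δ culture a or b moved the count without HIF1 to 3 or 444 and the count of the mean to 5 or 147, so the number of probes called without HIF1 rests on these arrays.

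CIT3 showed the clearest change after the deleted genes. It encodes a mitochondrial citrate and methylcitrate synthase of the methylcitrate cycle, which disposes of propionyl groups, and it is the annotated gene next to HAT1 across the centromere of chromosome XVI. It read −0.04 and 0.00 in hat2Δ and 0.02 and −0.02 in hat2Δhif1Δ, against 0.30 and 0.38 in hat1Δ and 0.32 and 0.37 in hat1Δhif1Δ. All 4 arrays without HAT2 were within 0.04 of wild type, and all 4 without HAT1 were at least 0.30 above it. The mean difference was −0.35 (SE 0.03, adjusted p = 0.000638 by limma), with −0.36 (adjusted p = 0.0159) where HIF1 was present and −0.34 (adjusted p = 0.0243) where it was not. The change lay on the HAT1 side also in the other strains: CIT3 read −0.01 and 0.02 in hif1Δ, 0.32 and 0.50 in hat1Δhat2Δ, and 0.39 and 0.47 in hat1Δhat2Δhif1Δ. The probe was dim, with net intensities of 10.8 to 12.8 in the strains without HAT2 and 23.5 to 32.5 in those without HAT1, a 2.32-fold difference of the means, and it was above background on all 8 arrays. Of 16 alternatives, the call was lost in 8 for the difference with HIF1 present (adjusted p up to 0.999) and in 9 for the difference without it (up to 0.298), among them the fit with no replicate block (0.233 and 0.253). The offset added before taking logs compresses such dim probes, and with an offset of 10 in place of 50, a setting chosen after seeing the data, the difference was −0.83 (adjusted p = 1.41e-05). The call in the mean was lost with median centring (−0.28, adjusted p = 0.304), and the filter on dim probes removed it.

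PDH1, which encodes the 2-methylcitrate dehydratase of the same cycle, is the next gene beyond CIT3. It read −0.27 and −0.08 in hat2Δ and 0.02 and −0.10 in hat2Δhif1Δ, against 0.23 and 0.33 in hat1Δ and 0.28 and 0.36 in hat1Δhif1Δ. The groups did not overlap, and the difference of −0.41 (SE 0.07, adjusted p = 0.0717) missed the threshold. It passed in 6 of 16 alternatives, with no background correction (adjusted p = 0.0164), the deposited ratios (0.0495), the 8 arrays alone (0.0123), an offset of 10 (0.0189) or without hat2Δhif1Δ culture a (0.0175) or b (0.0310), and was at 0.581 with no replicate block. Unlike CIT3, PDH1 was not above wild type in every strain without HAT1, reading −0.16 and −0.03 in hat1Δhat2Δ, and 0.06 and 0.50 in hat1Δhat2Δhif1Δ, with −0.20 and −0.16 in hif1Δ. The marker at HAT1 was KanMX in hat1Δhat2Δ and, in 2 triple mutants listed by the study, HphMX in one and NatMX in the other. The labels do not say which triple mutant went on which array, and the part of the marker in these values was not tested. ICL2, the methylisocitrate lyase that completes the cycle and lies 6 genes from HAT1, differed by −0.09 (adjusted p = 0.182).

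**Figure D2:**
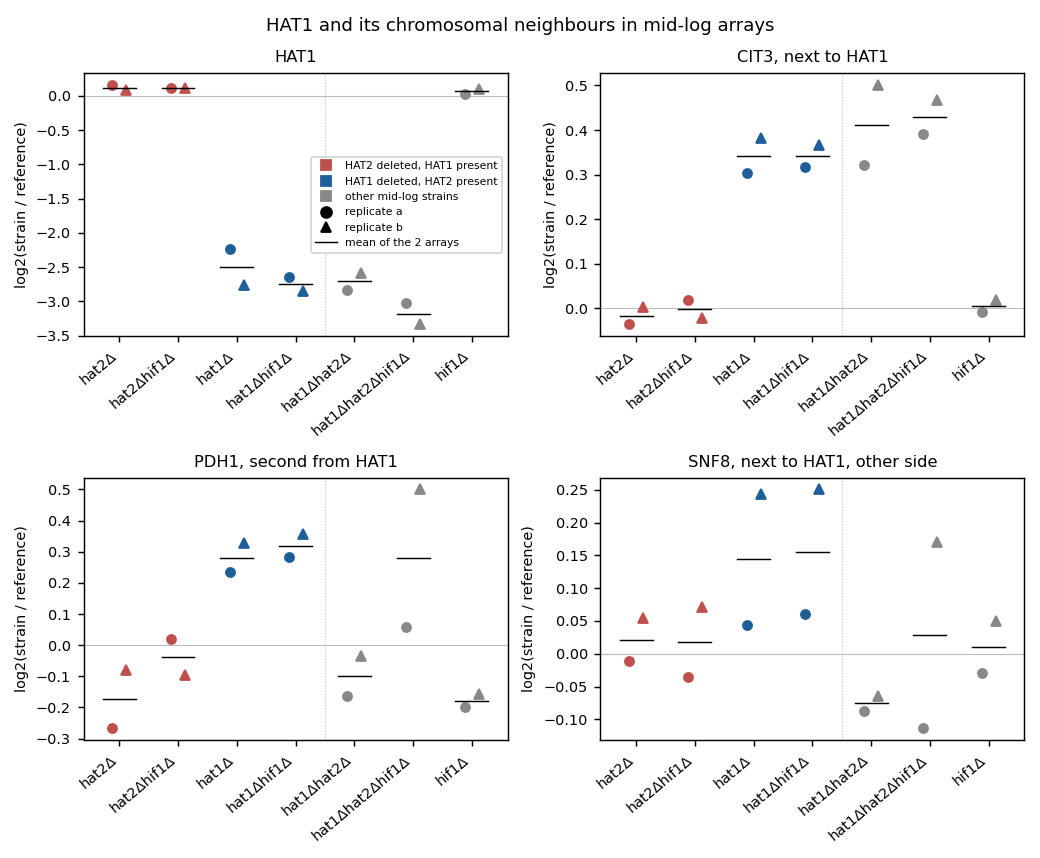
Log2 ratio of strain over wild type (y axis) for HAT1, CIT3, PDH1 and SNF8 in the 7 mid-log strains of the complex (x axis). Each point is a culture, and bars are means of the 2 cultures. CIT3 is near 0 where HAT1 is present and between 0.30 and 0.50 in every strain without it, whereas PDH1 lies between 0.23 and 0.36 in hat1Δ and hat1Δhif1Δ and below 0 in hat1Δhat2Δ.

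Other genes beside the deleted loci were examined in the same way. Of 12 genes within 3 positions of HAT1 or HAT2, 10 were measured, SDD1 and HHY1 having no probe under their names. CIT3 was called lower and none was called higher. At an unadjusted p under 0.05 there were 2 higher and 4 lower (8.75% and 8.38% of all probes). On the other side of HAT1, SNF8, a subunit of the ESCRT-II sorting complex, read −0.01 and 0.05 in hat2Δ and −0.04 and 0.07 in hat2Δhif1Δ, against 0.04 and 0.24 in hat1Δ and 0.06 and 0.25 in hat1Δhif1Δ. These arrays overlapped, and the difference was −0.13 (adjusted p = 0.183). ULA1, which activates the ubiquitin-like protein Rub1, differed by −0.02, the eisosome gene LSP1 by 0.10 and YPR003C by −0.07. Around HAT2 the differences were 0.09 for PCM1, an enzyme of chitin precursor synthesis, 0.06 for MAK10, a subunit of the NatC acetyltransferase, 0.03 for the ribosomal protein gene RPL12A and 0.10 for POL5, and none was called. The unnamed probe SCAB001636, whose identifier falls between those of HAT2 and PCM1, differed by 0.42 (adjusted p = 0.0804 by limma). It is described among the other observations.

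The H3 and H4 genes, which encode the histones that the complex binds, included 1 member called in the mean. HHF1, an H4 gene on chromosome II, read 0.30 and 0.47 in hat2Δ and 0.38 and 0.62 in hat2Δhif1Δ, against −0.01 and 0.19 in hat1Δ and 0.33 and 0.47 in hat1Δhif1Δ. Within each letter and HIF1 state the strain without HAT2 was higher, by 0.31 and 0.29 with HIF1 present and by 0.06 and 0.15 without it, while the arrays of the 2 sides overlapped. The mean difference was 0.20 (SE 0.03, 1.15-fold, adjusted p = 0.0291 by limma), with 0.30 (adjusted p = 0.0195) where HIF1 was present and 0.11 (adjusted p = 0.203) where it was not. A test of the difference between the HIF1 states gave −0.19 in the direction without minus with HIF1 (unadjusted p = 0.00589, adjusted p = 0.803). The call with HIF1 present was lost with median centring, the deposited ratios, no replicate block and all 20 mid-log arrays. Its adjusted p by limma was then 0.0626 to 0.9999. That call was also lost in 6 of 8 fits that left out an array, the difference staying at 0.29 to 0.30. The call in the mean also depended on the processing and on the arrays fitted. It was lost with print-tip loess, median centring, the deposited ratios, no replicate block and all 20 mid-log arrays (adjusted p = 0.0992 to 0.641), and in 6 of 8 fits that left out an array (adjusted p = 0.106 to 0.311).

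The other 3 genes ran the same way in the mean without passing the test. Without HIF1, HHT2 was higher in the pair of a cultures and lower in the pair of b cultures. HHF2, the H4 gene on chromosome XIV, read 0.41 and 0.32 in hat2Δ and 0.62 and 0.54 in hat2Δhif1Δ, against 0.11 and 0.19 in hat1Δ and 0.56 and 0.45 in hat1Δhif1Δ (0.14, adjusted p = 0.182). HHT1, the H3 gene on chromosome II, read 0.26 and 0.26 in hat2Δ and 0.38 and 0.56 in hat2Δhif1Δ, against 0.08 and 0.09 in hat1Δ and 0.37 and 0.53 in hat1Δhif1Δ (0.10, adjusted p = 0.274). HHT2, the H3 gene on chromosome XIV, read 0.31 and 0.24 in hat2Δ and 0.51 and 0.49 in hat2Δhif1Δ, against 0.08 and 0.11 in hat1Δ and 0.46 and 0.54 in hat1Δhif1Δ (0.09, adjusted p = 0.254). The test between the HIF1 states gave, without minus with HIF1, −0.14 for HHF2 (unadjusted p = 0.14), −0.15 for HHT1 (0.0973) and −0.18 for HHT2 (0.0301), and none passed after adjustment. The copies of each histone gene are nearly identical, so a probe may read both copies, which was not tested.

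Averaged over the 4 H3 and H4 genes, the arrays read 0.32 and 0.32 in hat2Δ and 0.47 and 0.55 in hat2Δhif1Δ, against 0.07 and 0.15 in hat1Δ and 0.43 and 0.50 in hat1Δhif1Δ. The 2 hat1Δ arrays were the lowest of the 14 mid-log arrays of the complex, the others being 0.40 and 0.51 in hif1Δ, 0.32 and 0.29 in hat1Δhat2Δ and 0.45 and 0.48 in hat1Δhat2Δhif1Δ. The difference per pair of arrays was 0.25 and 0.18 with HIF1 present and 0.04 and 0.06 without it, with a mean of 0.13 ± 0.10 (SD, n = 4 pairs). The H2A and H2B genes lay on both sides of 0. HTA1 differed by 0.07, HTA2 by 0.11, HTB1 by −0.05 and HTB2 by −0.06, none called, and their mean per pair was 0.06, −0.02, −0.00 and 0.02. Of the variant and linker histone genes, the centromeric H3 gene CSE4 differed by 0.00, the H2A.Z gene HTZ1 by 0.06 and the H1 gene HHO1 by −0.06.

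**Figure D3:**
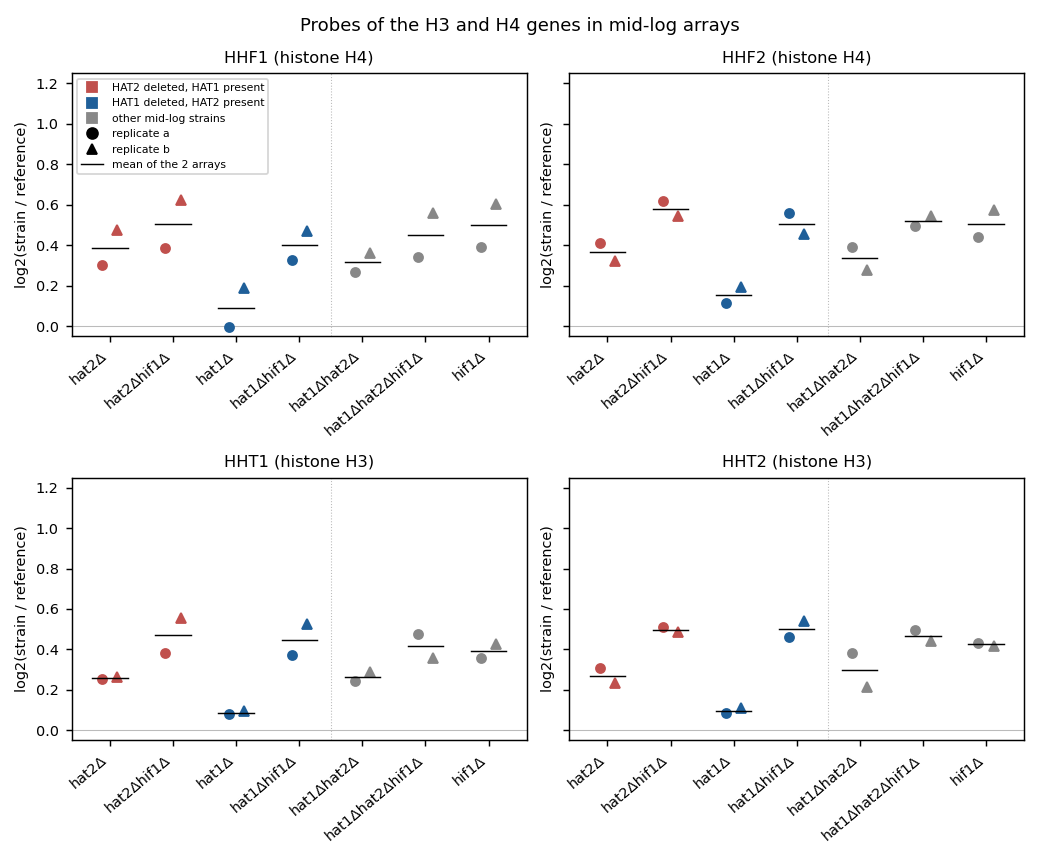
Log2 ratio of strain over wild type (y axis) for the H4 genes HHF1 and HHF2 and the H3 genes HHT1 and HHT2 in the 7 mid-log strains (x axis). Each point is a culture, and bars are means of the 2 cultures. The hat1Δ points are the lowest in every panel, and hat2Δhif1Δ and hat1Δhif1Δ lie close together.

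A further 3 probes passed the test only in the difference without HIF1, and for none did the test between the HIF1 states pass after adjustment. CHO1, the phosphatidylserine synthase gene, read 0.15 and 0.21 in hat2Δ and 0.09 and 0.23 in hat2Δhif1Δ, against 0.06 and 0.12 in hat1Δ and −0.12 and −0.06 in hat1Δhif1Δ. It rose by 0.25 without HIF1 (adjusted p = 0.033) and its mean difference of 0.17 lay just outside the threshold (SE 0.03, adjusted p = 0.054). ARG3, the ornithine carbamoyltransferase of arginine synthesis, read −0.47 and −0.49 in hat2Δ and −0.84 and −0.73 in hat2Δhif1Δ, against −0.49 and −0.43 in hat1Δ and −0.39 and −0.46 in hat1Δhif1Δ. The gene was below wild type in all 4 strains and lowest in hat2Δhif1Δ, which differed by −0.36 from hat1Δhif1Δ (SE 0.05, adjusted p = 0.0382), against −0.02 with HIF1 present. SCAB005056, a probe with no gene name, read 0.37 and 0.33 in hat2Δ and 0.25 and 0.20 in hat2Δhif1Δ, against 0.39 and 0.32 in hat1Δ and 0.57 and 0.47 in hat1Δhif1Δ (−0.30 without HIF1, adjusted p = 0.0265). The test between the HIF1 states gave unadjusted p of 0.00829 for CHO1, 0.00105 for ARG3 and 0.000409 for SCAB005056. The call without HIF1 was lost under 14 alternatives for CHO1, 12 for ARG3 and 11 for SCAB005056.

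Among the genes of lowest p that missed the threshold, those higher without HAT2 had mixed roles. NMD4, whose product binds the decay helicase Upf1, read 0.25 and 0.17 in hat2Δ and 0.28 and 0.23 in hat2Δhif1Δ, against 0.14 and 0.10 in hat1Δ and 0.03 and −0.03 in hat1Δhif1Δ (0.17, adjusted p = 0.0804). UPS2, which takes part in mitochondrial phospholipid transfer, read 0.44 and 0.34 in hat2Δ and 0.44 and 0.38 in hat2Δhif1Δ, against 0.31 and 0.22 in hat1Δ and 0.29 and 0.22 in hat1Δhif1Δ (0.14, adjusted p = 0.131). In both genes every array without HAT2 lay above every array without HAT1, which held for 2.16% of all probes. The uncalled genes were picked for low p and for 4 pair differences of 1 sign, which favours such a separation. COX16, a cytochrome oxidase assembly factor, differed by 0.14, the sulfite reductase subunit gene MET10 by 0.13, the phosphoinositide phosphatase gene YMR1 by 0.17 and YOL014W by 0.15, with adjusted p of 0.132 to 0.149.

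The remaining genes on the higher side carried a dye or culture pattern larger than the exchange. PKH2, which encodes a kinase of the sphingolipid-signalling pathway, read −0.23 and 0.54 in hat2Δ and −0.27 and 0.51 in hat2Δhif1Δ, against −0.54 and 0.40 in hat1Δ and −0.86 and −0.05 in hat1Δhif1Δ (0.40, adjusted p = 0.0917). In all 4 strains culture b was above culture a, by 0.77 to 0.94. Its paralog PKH1 (0.21), the bZIP factor gene YAP6 (0.25) and YDL177C (0.34) had the same gap between letters, and the 4 probes correlated at 0.98 to 0.99 with each other over the 14 arrays. Letters are dye orientations, and the part of the dye in these 4 genes was not tested beyond its place as a block in the fit.

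On the lower side, RPO21, the gene of the largest RNA polymerase II subunit, came after CIT3 and PDH1. It read −0.33 and −0.23 in hat2Δ and −0.19 and −0.14 in hat2Δhif1Δ, against 0.00 and −0.08 in hat1Δ and −0.04 and 0.05 in hat1Δhif1Δ. The arrays without HAT2 were below wild type and below all of those without HAT1 (−0.20, SE 0.03, adjusted p = 0.0804 by limma). Such a separation in the lower direction held for 2.4% of all probes, and RPO21 was picked in the same way. The hat1Δhat2Δ arrays, which also lack HAT2, read −0.02 and 0.03, and the triple mutants 0.06 and −0.02, so a low RPO21 value was seen in strains that lack HAT2 and keep HAT1. The other genes on this side were POP1, a subunit of RNase P and MRP (−0.13), LEU4, an isopropylmalate synthase (−0.12), the lysine permease gene LYP1 (−0.12), the nicotinamide riboside transporter gene NRT1 (−0.14), the mRNA export factor gene SAC3 (−0.11), the N-acetyltransferase gene SLI1 (−0.11), the cyclin-like CLG1 (−0.13), the cAMP phosphodiesterase gene PDE2 (−0.15) and YDR239C (−0.10), all at an adjusted p of 0.149.

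**Figure D4:**
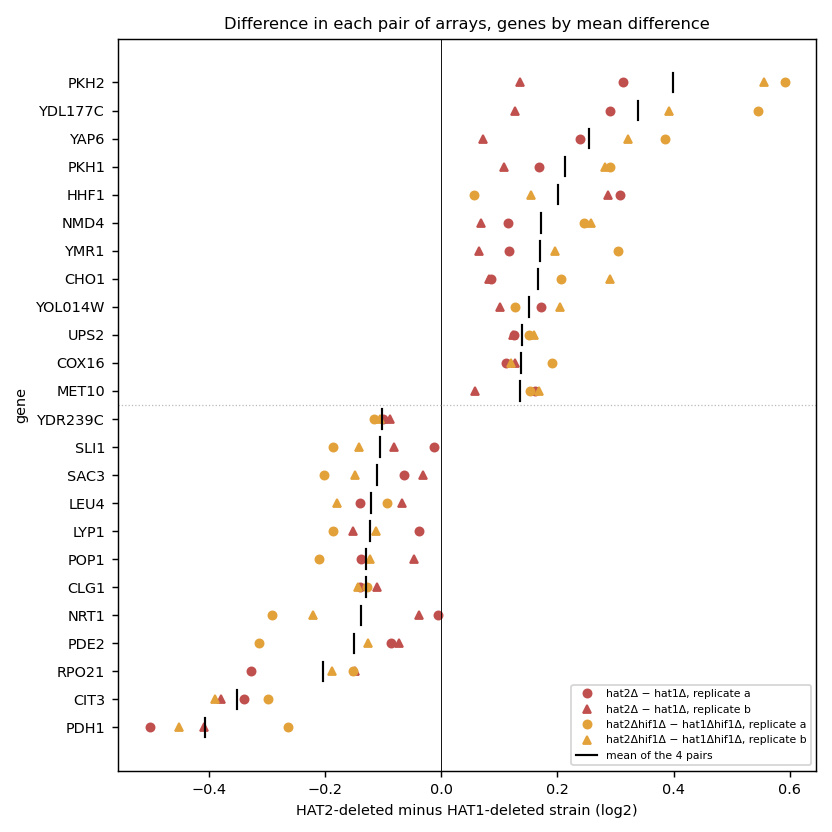
Differences of the 4 array pairs for the 24 genes named by lowest p, listed down the y axis, HAT2-deleted minus HAT1-deleted, in log2 units on the x axis. Pairs are a and b with HIF1 present and a and b without it. Of the called genes, CIT3 has all 4 pairs below 0 and HHF1 has all 4 above it. Uncalled genes, PDH1 and RPO21 among them, were listed only if all 4 pairs shared a sign, so their agreement was set by the choice.

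Lists of functionally related genes are described by their counts and medians, beside a median of 0.00 over all probes. Genes of the general stress response had the widest shift of those measured by 20 or more probes. None of 22 was called, 5 had an unadjusted p under 0.05 in the higher direction and 0 in the lower (8.75% and 8.38% of all probes), and the median was 0.16. In the difference without HIF1 the median was 0.32, with 11 of 22 higher at an unadjusted p under 0.05 (9.22% of all probes) and none called, and with HIF1 present it was −0.01. The list median was not tested between the HIF1 states. By array the list mean was 0.06 and 0.05 in hat2Δ and 0.54 and 0.09 in hat2Δhif1Δ, against 0.14 and −0.00 in hat1Δ and −0.00 and 0.00 in hat1Δhif1Δ. A single array, hat2Δhif1Δ culture a, was thus high, and without it the medians were 0.03 for the mean and 0.07 without HIF1. DDR2, a gene of unknown function induced by many stresses, read 0.31 and 0.35 in hat2Δ and 0.93 and 0.45 in hat2Δhif1Δ, against 0.34 and 0.24 in hat1Δ and 0.02 and 0.17 in hat1Δhif1Δ. The trehalose synthesis genes TPS1 and TPS2 differed by 0.23 and 0.22.

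The ribosome biogenesis list ran the other way on the same array. Of 31 genes none was called, and the median was −0.04. At an unadjusted p under 0.05, 1 was higher and 7 lower (8.75% and 8.38% of all probes). Without HIF1 the median was −0.11, with pair medians of −0.17 for a and 0.00 for b, and it was −0.00 once hat2Δhif1Δ culture a was left out. Examples were UTP10 (−0.18) and UTP13 (−0.13), components of the small-subunit processome, and the helicase gene DBP3 (−0.12). Ribosomal protein genes had a median of 0.00 over 24 members, and heat shock genes 0.04 over 14.

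**Figure D5:**
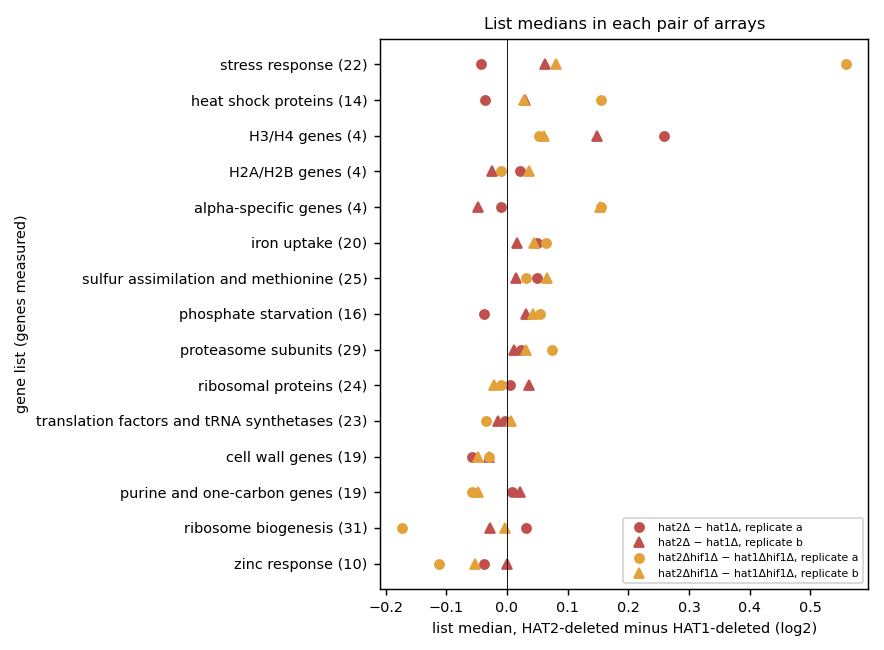
Median difference, HAT2-deleted minus HAT1-deleted (x axis, log2), for 15 gene lists, named down the y axis, in each of the 4 pairs of arrays. The stress response list reaches 0.56 in the pair of a arrays without HIF1 and lies between −0.04 and 0.08 in the other 3 pairs, and the H3 and H4 list is above 0 in all 4.

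Several nutrient-related lists had medians of 0.04 with members mostly on the higher side and none called, beside 8.75% of all probes higher and 8.38% lower at an unadjusted p under 0.05. Iron uptake genes counted 7 higher and 0 lower of 20 at an unadjusted p under 0.05, among them the siderophore transporter genes ARN2 (0.21) and SIT1 (0.13) and the heme oxygenase gene HMX1 (0.09). Genes of sulfur assimilation and methionine synthesis counted 7 higher and 0 lower of 25, with MET10 (0.13), MET3 (0.10), MET17 (0.10) and MET16 (0.09). Phosphate genes counted 3 higher and 0 lower of 16. The high-affinity phosphate transporter gene PHO84 read −0.45 and −0.12 in hat2Δ and −0.17 and −0.87 in hat2Δhif1Δ, against −0.40 and −0.64 in hat1Δ and −1.23 and −1.19 in hat1Δhif1Δ, a difference of 0.46 with a wide spread within strains. The proteasome list had a median of 0.03 with 7 higher and 1 lower of 29, among them the core subunit genes PRE2 and PRE10 (0.10 each) and the lid subunit gene RPN8 (−0.11).

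Lists on the lower side were small in shift as well, and their counts are set against the same shares of 8.75% higher and 8.38% lower over all probes. Cell wall genes had a median of −0.04 with 0 higher and 5 lower of 19, including SED1 (−0.13), TIR2 (−0.09) and CIS3 (−0.08). Daughter-specific and M/G1 genes had a median of −0.01 with 0 higher and 5 lower of 17. The chitinase gene CTS1 differed by −0.16 in the mean and, without HIF1, by −0.30 (adjusted p = 0.050). Purine genes had a median of −0.04 (0 higher and 4 lower of 19) and zinc-responsive genes −0.06 (0 and 2 of 10). Amino acid synthesis genes counted 5 higher and 7 lower of 37, with the serine synthesis gene SER3 at 0.28 (adjusted p = 0.149). Cell cycle genes of G1/S and of G2/M each had a median of −0.02, with 3 higher and 5 lower of 26 and with 0 and 1 of 17, and respiratory chain and ATP synthase genes had a median of 0.02 over 32. Glucose-repressed genes (−0.01 over 21) and ergosterol genes (0.00 over 21) lay at the median of all probes within 0.02.

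Genes of the histone and chromatin machinery outside the complex had list medians within 0.02 of that over all probes, and none was called. Their counts stand beside 8.75% of all probes higher and 8.38% lower at an unadjusted p under 0.05. Other histone acetyltransferase genes had a median of 0.00 with 2 higher and 2 lower of 20 at an unadjusted p under 0.05, GCN5 being at 0.09. Histone deacetylase genes had a median of −0.01 with 2 higher and 1 lower of 20, HOS3 being at −0.11. Histone chaperone genes had a median of 0.00 with 1 higher and 3 lower of 18. The lower ones were MSI1 (−0.11, adjusted p = 0.149), which encodes the other RbAp-type WD40 protein and a subunit of chromatin assembly factor 1, HIR3 (−0.09) and HIR2 (−0.08), subunits of the HIR corepressor of histone genes. Chromatin remodelling genes counted 1 higher and 4 lower of 20, silencing genes 2 and 0 of 15, import receptor genes 1 and 2 of 10, and DNA damage response genes 2 and 2 of 19.

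Mating-type and sporulation genes were examined because the type B enzyme has been linked to silencing. MATa-specific genes had a median of −0.02 over 7, and pheromone response genes −0.02 over 19. The 4 MATα-specific genes had a median of 0.10, with −0.02 where HIF1 was present and 0.16 where it was not, and none was called. STE3 read 0.18 and 0.08 in hat2Δ and 0.19 and 0.01 in hat2Δhif1Δ, against 0.22 and 0.06 in hat1Δ and −0.04 and −0.17 in hat1Δhif1Δ. Meiotic genes had a median of 0.02 with 2 higher and 0 lower of 16 at an unadjusted p under 0.05 (8.75% and 8.38% of all probes). Of the loci at which the study followed histone exchange, ADH1 differed by 0.08, ADH2 by −0.01 and HHT2, as given above, by 0.09, and none was called.

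The same exchange in G0 called only the deleted genes, HAT1 at 2.13 (adjusted p = 3.68e-05) and HAT2 at −2.04 (adjusted p = 4.0e-05), which is 2 of 6388 probes (0.0313%), with 801 at an unadjusted p under 0.05 by limma, 353 higher (5.53%) and 448 lower (7.01%). Mid-log and G0 differ in mating type, markers, medium and growth state together, which cannot be told apart. CIT3 was strongly above its reference in all starved strains, at 3.39 and 3.25 in hat2Δ and 3.67 and 3.94 in hat2Δhif1Δ, against 3.69 and 3.91 in hat1Δ and 3.17 and 4.04 in hat1Δhif1Δ. Its G0 difference was −0.14 (SE 0.18, adjusted p = 0.785), an error wide enough to hold the mid-log value. PDH1 differed by −0.02 in G0 (adjusted p = 0.97). The HHF1 probe gave 0.06 (adjusted p = 0.773) in strains whose HHF1 gene is deleted, so it reads no HHF1 transcript there. A direct test of mid-log against G0 called 0 of 6388 probes (0%), with 952 at an unadjusted p under 0.05, 492 more positive in mid-log (7.7%) and 460 more negative (7.2%), and a lowest adjusted p of 0.0548, which SNF8 was among the probes to reach. SNF8 read 0.21 and 0.14 in hat2Δ and 0.31 and −0.04 in hat2Δhif1Δ, against −0.17 and −0.23 in hat1Δ and −0.17 and −0.17 in hat1Δhif1Δ in G0, a difference of 0.34 (adjusted p = 0.133) beside −0.13 in growing cells. The test between the growth states gave −0.47 for this gene. SNF8 was called in G0 with print-tip loess and the deposited ratios, and in the test between the growth states with these, without dim probes, with an offset of 10 and when some single G0 arrays were left out.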

How the data were processed

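The authors deposited scanner files with spot and background intensity values of 2 channels and 15552 spots per array, not corrected for background, and a value table of log2 ratios (strain over reference, within-array normalized), for which the submitters' notes name limma 2.12.0. A further deposited table holds log2 changes and p-values of the authors' own comparisons and was not used. The deposited log2 columns correlated at 0.855 to 0.962 with the scanner ratios (medians −0.00190 to 0.00339) and served as an alternative.

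Here, normexp (offset 50) was followed by loess per array, control spots weighing 0, and the 2 spots of a probe were averaged (R 4.3.3, limma 3.58.1, statmod 1.5.0). Ratios were turned to strain over reference by the dyes in the labels. The design text orders the dyes otherwise, and the deleted genes were low on every array with the labels' orientation. All 14 mid-log arrays of the 7 strains of the complex were fitted together, with the replicate letter, which is the dye orientation, as a block. Letters pair arrays: deviations of same-letter arrays correlated at 0.357 to 0.772 over 21 strain pairs (median 0.59). G0 values came from a fit of 16 arrays, which included starved wild type, hif1Δ and the HHF2 mutants. The comparison of mid-log with G0 came from a fit of 30. Benjamini-Hochberg adjustment ran over 6388 probes, with calls made under 0.05. Gene symbols came from the platform table, 5326 probes having 1 symbol and 1062 none, and all 5315 symbols were found in the yeast reference, 11 of them with 2 probes.

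Named were the complex, neighbours of HAT1 and HAT2, histone genes, the loci of the turnover study, called probes, the probes of lowest p with 4 pair differences of 1 sign (up to 12 per direction in all) and up to 3 members of each list by lowest p. The gene lists and the genes in them were chosen with earlier results of these data known. Alternatives were uncorrected background, loess by print tip, centring on the median alone, a filter on probes under the 25th percentile of brightness, the deposited ratios, no block, the 8 arrays alone, all 20 mid-log arrays and each array left out. An offset of 10 was added after seeing the data. The fit was tested on simulated data. The number of arrays limits the precision.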

Additional observations from a re-analysis of the deposited data

Results flagged for a closer look

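In each set of 4 arrays of the named genes, an array far from the other 3 was looked for by Dixon's criterion, which chance meets in about 1 of 20 sets. It was met in 2 of 70 sets, both among the strains without HAT1. SLI1 read −0.0859 in hat1Δ culture a, against 0.00145 to 0.00905 on the other 3 arrays without HAT1. LEU4 read −0.0590 in hat1Δ culture b, against −0.00689 to 3.34e-05 on the other 3.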

How the results depend on the processing

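No called value changed sign, and HAT1 and HAT2 were called throughout in the mean. The ribosome biogenesis median of −0.04 in the mean became 0.01 without hat2Δhif1Δ culture a, and medians close to 0 crossed it for the stress and ribosome biogenesis lists with HIF1 present and the H3/H4 and proteasome lists without HIF1. The 4 probes called in the mean became 12 with no background correction, 2 with median centring, 12 with only the 8 arrays compared and 7 with an offset of 10, and 3 to 147 when an array was left out. The 4 called with HIF1 present became 2 with median centring, and 2 to 4 with an array left out. The 6 called without HIF1 became 22 with no background correction, 2 with median centring, 20 without dim probes, 17 with the deposited ratios, 3 with all 20 mid-log arrays and 10 with an offset of 10, and 2 to 444 with an array left out, 444 without hat2Δhif1Δ culture b. The difference between HIF1 states called 0 to 4, the G0 exchange 2 to 4, and the difference between mid-log and G0 0 to 229 with an array left out (229 without hat1Δ culture a in G0). That last count, 0 at first, was 1 with no background correction, 9 with print-tip loess, 1 with median centring, 3 without dim probes, 2 with the deposited ratios and 5 with an offset of 10. The causes were not tested. Without the replicate block, which removes the pairing of arrays by letter, 3 probes were called in the mean, 2 with HIF1 present and 2 without HIF1, and 0, 2 and 0 in the other comparisons. HAT1 in strains without HAT2 was 0.0444 in the deposited ratios, and an offset of 10 put HAT1 at −3.95 without HAT1 and HAT2 at −3.37 without HAT2. The mean of the H3 and H4 genes was 0.09 to 0.16 with an array left out. Of 1049 alternative values of single genes and lists, 76 lost a call, 31 gained one and 29 list medians moved by more than their spread. Most of the 1049 had no call to lose. Besides HAT1 and HAT2, only HHF1, CIT3, CHO1, ARG3 and SCAB005056 had one. HHF1 lost it in 11 of 17 alternatives in the mean and in 10 of 17 with HIF1 present. CIT3 lost it in 1 of 16 in the mean, 8 of 16 with HIF1 present and 9 of 16 without HIF1. Without HIF1, CHO1, ARG3 and SCAB005056 lost it in 14, 12 and 11 of 17. CIT3 and PDH1 have no value without dim probes, and dim probes limit what the arrays could show.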

Other observations

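An unnamed probe, SCAB001636, was chosen after its values were seen because its identifier falls between those of HAT2 and PCM1. Of 4475 consecutive identifiers with names, 98.4% belong to genes that are neighbours on a chromosome. The annotated gene between HAT2 and PCM1 is SDD1, which had no probe under its name, and whether SCAB001636 reads it was not tested. It read 0.57 and 0.50 in hat2Δ and 0.38 and 0.48 in hat2Δhif1Δ, against 0.03 and 0.10 in hat1Δ and 0.07 and 0.05 in hat1Δhif1Δ (0.42, SE 0.07, adjusted p = 0.0804 by limma). All 4 arrays of hat2Δ and hat2Δhif1Δ were above the 4 of hat1Δ and hat1Δhif1Δ, and net intensities were 46.3 to 71.4 against 20.4 to 34.2. In the other mid-log strains it read 0.09 and 0.10 in hif1Δ, 0.50 and 0.38 in hat1Δhat2Δ, and 0.49 and 0.04 in hat1Δhat2Δhif1Δ. The triple mutants thus differed between cultures here as they did for PDH1 (0.06 and 0.50), in the opposite direction. The study lists 2 triple mutants in which NatMX and HphMX are exchanged between HAT1 and HAT2, and NatMX at HAT2 in hat2Δ, hat2Δhif1Δ and hat1Δhat2Δ. Which of them was on which array is not in the labels, and the part of the marker was not tested.

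Some further gene groups were chosen after their values were seen and are given as values. Over all probes, 8.75% were higher and 8.38% lower at the same unadjusted p under 0.05. Phospholipid synthesis genes had a median of 0.03 with 5 higher and 1 lower of 16 at an unadjusted p under 0.05. RNA polymerase II subunit genes had a median of −0.03 with 0 higher and 2 lower of 12, RPO21 being one of them. The subtelomeric COS family had a median of 0.03 with 3 higher and 0 lower of 10, namely COS8 (0.26), COS4 (0.20) and COS7 (0.19), members that share sequence and may share probe signal. Of the 10 outermost genes on each chromosome arm, 222 of 320 were measured, with a median of 0.00, 17 higher and 11 lower. RIF2, a telomere-length regulator, differed by 0.25, and like PKH2 it was higher in culture b than in culture a.

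The spot of ATG33 separated sets of arrays. Its net intensity was 151 to 406 on the 8 mid-log arrays, −0.166 to 0.955 on the G0 hat2Δ and hat1Δ arrays, and 92.6 to 1486 on the G0 double-mutant arrays, so that each exchange in G0 was made within a set.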
